A study of Mus musculus with 16 samples.

Results

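A set of chemokine and growth factor genes was followed in cultured brain endothelial cells that express human *APOE3* or *APOE4*. They were taken by name from the deposited count table, as the chemokines Ccl2, Ccl5, Ccl7, Cxcl1, Cxcl2, Cxcl10, Cxcl12, Cxcl16 and Cx3cl1 and the macrophage growth factor Csf1. All 10 were among the 39057 genes of the table, and 9 of them were among the 12481 genes with enough counts to be tested. Primary endothelial cells came from the cerebral cortex of targeted replacement mice aged 21 to 28 days, in which a human *APOE* allele is expressed from the promoter of the mouse gene. The 8 *APOE3* and 8 *APOE4* cultures each came from a different animal, with 4 males and 4 females per genotype. Every culture was selected with 8 µg/ml puromycin, which endothelial cells survive through their efflux pumps, grown to confluence and left untreated. There was no group with mouse *Apoe* alone, so *APOE4* is described relative to *APOE3*.

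Chemokines are small secreted proteins that direct leukocytes through G protein-coupled receptors, and endothelium displays them on heparan sulfate at the vessel wall. Ccl2 and Ccl7 attract monocytes through Ccr2, Cxcl1 and Cxcl2 attract neutrophils through Cxcr2, Ccl5 and Cxcl10 attract T cells, and Cxcl12 holds cells in place through Cxcr4. Cx3cl1 and Cxcl16 are made as membrane-bound chemokines that proteases such as Adam10 and Adam17 release, and Csf1 keeps macrophages and microglia alive through Csf1r. Many of these genes are switched on by NF-kB when a cell senses cytokines or microbial products, and Cxcl10 also by interferon.

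The promoters of the inducible members are shown first, since NF-kB and interferon are their known inputs. RefSeq windows (GRCm38.p6) reaching from 250 bases before the start of transcription to 50 bases after it were found for 6 of the 10 genes, namely Cxcl1, Cxcl2, Cxcl10, Cxcl12, Cx3cl1 and Csf1. Both strands were searched for the NF-kB consensus, for the interferon-type letters GAAANNGAA and for the AP-1-type letters TGANTCA. Matches lay in 4, 1 and 1 of these 6 windows, against 8.46%, 8.56% and 7.81% of all 32851 windows of the same length. The 200 bases from position 250 to position 51 before the start are printed in the direction of the gene for the 4 genes with a match, and capitals mark the matched letters.
Cxcl1 (chr5:90890995-90891194, plus strand): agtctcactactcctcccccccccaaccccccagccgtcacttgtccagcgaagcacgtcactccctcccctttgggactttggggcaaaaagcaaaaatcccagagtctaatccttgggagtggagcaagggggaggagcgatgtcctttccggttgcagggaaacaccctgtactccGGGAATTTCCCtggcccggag
Cxcl2 (chr5:90903649-90903848, plus strand): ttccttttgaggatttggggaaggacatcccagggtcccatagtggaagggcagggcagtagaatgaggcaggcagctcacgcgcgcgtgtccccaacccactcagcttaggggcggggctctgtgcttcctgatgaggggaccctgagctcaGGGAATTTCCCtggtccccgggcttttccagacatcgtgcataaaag
Cxcl10 (chr5:92348940-92349139, minus strand): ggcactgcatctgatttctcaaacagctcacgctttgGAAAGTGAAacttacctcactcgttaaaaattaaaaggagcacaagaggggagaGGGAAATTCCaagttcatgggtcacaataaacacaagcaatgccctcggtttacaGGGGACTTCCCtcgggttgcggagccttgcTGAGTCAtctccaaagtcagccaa
Csf1 (chr3:107760520-107760719, minus strand): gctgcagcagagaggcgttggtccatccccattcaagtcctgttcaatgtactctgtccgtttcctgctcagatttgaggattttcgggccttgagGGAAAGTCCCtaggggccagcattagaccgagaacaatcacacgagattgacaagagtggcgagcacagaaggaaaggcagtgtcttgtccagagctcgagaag
Cxcl1 and Cxcl2 carry the same 11 bases, GGGAATTTCCC, at 71 to 61 and at 97 to 87 bases before their starts, and both strands of this stretch match the NF-kB consensus in overlapping places. In Csf1 the other strand matches, at 154 to 145 bases before the start. Cxcl10 has NF-kB letters at 2 places, and in addition GAAAGTGAA at 213 to 205 and TGAGTCA at 74 to 68 bases before its start. The windows of Cxcl12 and Cx3cl1 hold none of the 3 sets of letters. A match is a description of the letters, and binding was not measured.

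Total counts per library were 12717847 to 18624417, and levels are given as CPM, counts scaled to library size. Human *APOE* was present in every library at 609 to 1425 CPM, and counts of the sex-linked genes Xist and Ddx3y matched the labelled sex in all 16 libraries. All 14 brain endothelial markers were detected, Pecam1 at 3624 ± 121 CPM with *APOE3* and 3646 ± 129 with *APOE4* (SD, n = 8). Emcn rose (log2 fold change 0.14, adjusted p = 0.0106) and Slco1c1 fell (log2 fold change -0.31, adjusted p = 0.0472) among them, a call kept in 16 of 16 fits with 1 library left out for Emcn and in 6 of 16 for Slco1c1, which also lost it with limma voom and with sex as a covariate. The 14 microglia and macrophage markers summed to 6.34 to 7.92 CPM with *APOE3* and 5.57 to 8.34 with *APOE4*, most of it Cd68, and Itgam, P2ry12, C1qa, C1qc and Tyrobp had 0 counts in all 16 libraries. Pericyte and smooth muscle markers summed to 188 to 354 CPM with *APOE3* and 222 to 339 with *APOE4*, most of it Tagln and Acta2. Tagln averaged 161 and 178 CPM and Acta2 83.8 and 80.3, while Pdgfrb averaged 4.74 and 6.10 CPM. Rgs5, Kcnj8, Abcc9 and Vtn had too few counts to be tested. Fibroblast markers summed to 13.3 to 65.3 and 10.4 to 85.2 CPM. None of the tested markers of these last 3 cell types, or of astrocytes, oligodendrocytes and neurons, passed the test for genotype.

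Per length of transcript, the 10 genes covered several orders of magnitude. On the scale of RPKM (CPM per kilobase of merged exons), Cxcl12 averaged 187 over the 16 libraries (range 146 to 226), Ccl2 162 (90.4 to 325), Csf1 143 (101 to 200.3) and Cx3cl1 125 (107 to 151). The ranges of these leading 4 overlapped, and over both genotypes each of the first 3 was above the next in order in 11 of 16 libraries. This pooled order was that of neither genotype. With *APOE3* the means were 200.2 for Cxcl12, 132 for Cx3cl1, 131 for Ccl2 and 126 for Csf1. With *APOE4* they were 192 for Ccl2, 173 for Cxcl12, 160 for Csf1 and 118 for Cx3cl1. Cxcl1 followed at 20.8 RPKM (10.3 to 35.7) and Cxcl16 at 14.8 (9.69 to 21.8), both below Cx3cl1 in every library, and Cxcl1 was above Cxcl16 in all 16.

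Ccl5 averaged 3.58 RPKM and Cxcl2 2.90, and Ccl5 was the higher of the pair in 13 of 16 libraries. Cxcl10, the interferon-induced member, averaged 0.990 RPKM (0.379 to 2.44), and Cxcl2 was above it in 14 libraries. Ccl7 was at or under 2 counts in every library, with 9 counts in all 16 together. It was thus not tested by the fit, and its CPM did not differ between genotypes (exact permutation test, two-sided p = 0.804), a comparison that counts under the floor of 3 leave nearly without information. Ccl7 lies on chromosome 11 just 8.26 kb from Ccl2, which had 45630 counts.

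**Figure D1:**
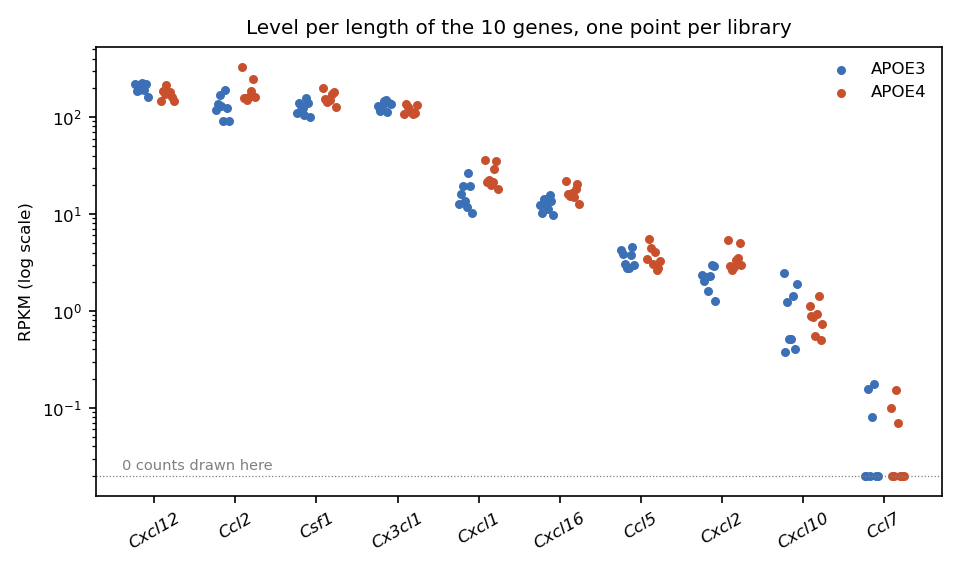
Level of each gene in RPKM (log scale) in each of the 16 libraries, APOE3 in blue and APOE4 in orange, ordered by the mean over all libraries. Cxcl12, Ccl2, Csf1 and Cx3cl1 overlap between 90.4 and 325 RPKM, while Ccl7 had 0 counts in most libraries, drawn at the dotted line.

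Transcripts of 5 of the 9 genes tested rose with *APOE4*: the monocyte chemokine Ccl2, the neutrophil chemokines Cxcl1 and Cxcl2, the membrane-bound Cxcl16 and the growth factor Csf1. Their fold changes lay between 1.27 and 1.62, and 0 of the 9 fell. Among all genes tested 6.71% were called higher and 6.09% lower (edgeR quasi-likelihood test, Benjamini-Hochberg adjusted p under 0.05), and the median log2 fold change of all genes was close to 0. For none of the 9 were the genotypes without overlap, a pattern that 0.256% of all genes tested showed in the higher direction. RNA was measured in bulk, so more cells of one state and more RNA per cell cannot be told apart.

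**Figure D2:**
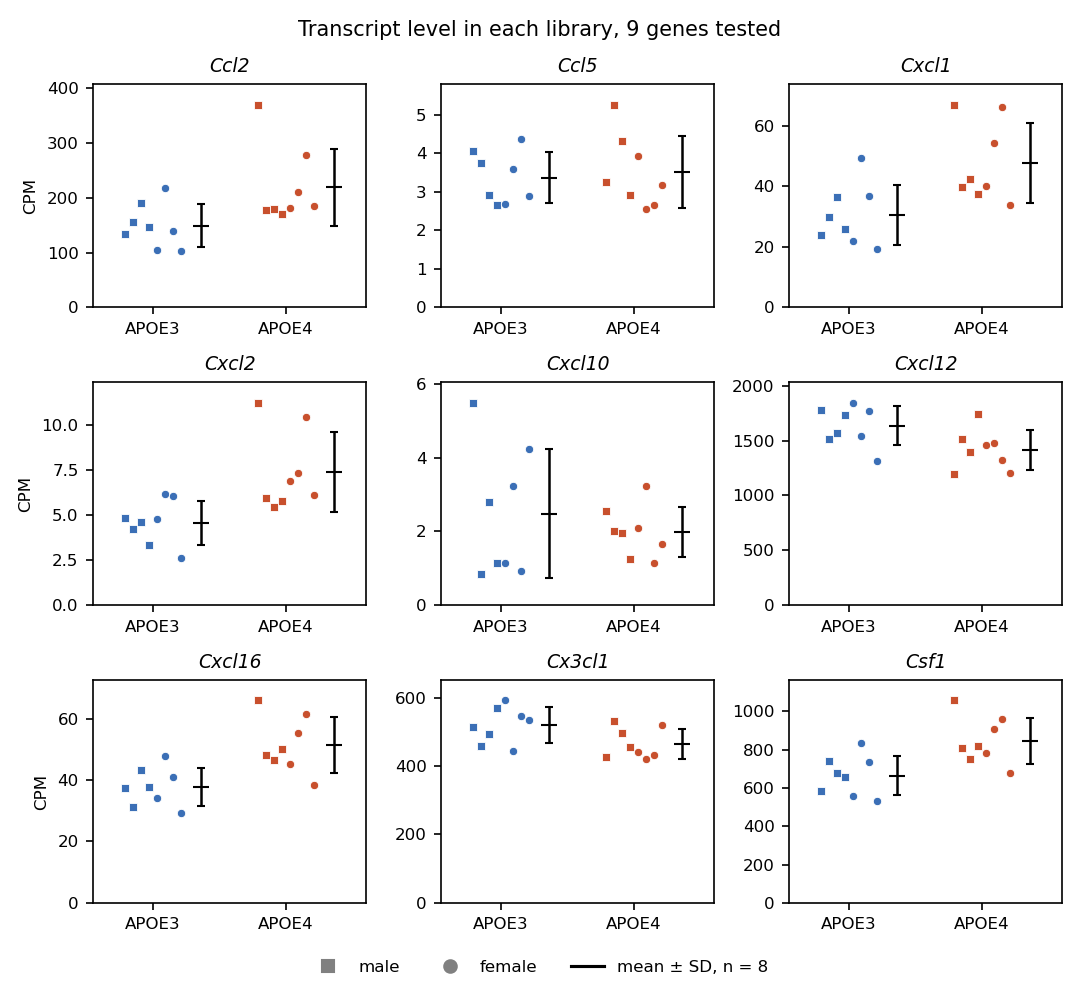
CPM of the 9 genes tested in each library (vertical axes from 0), with males as squares and females as circles in the order of their replicate numbers, and the mean ± SD of the 8 libraries of each genotype beside them. All 8 APOE4 libraries lie above the APOE3 median for Ccl2, Cxcl1, Cxcl2, Cxcl16 and Csf1, and 1 of 8 does for Cxcl12 and for Cx3cl1.

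The neutrophil chemokines had the largest differences. Cxcl2 (ENSMUSG00000058427.10, chr5:90903871-90905938, plus strand) ranged from 2.61 to 6.19 CPM with *APOE3* (median 4.72) and from 5.44 to 11.3 CPM with *APOE4* (median 6.53). Replicates 35 (11.3) and 41 (10.5) were the highest *APOE4* libraries, 4 of 8 were above every *APOE3* library, and the genotypes overlapped. The mean went from 4.59 ± 1.22 to 7.43 ± 2.23 CPM (SD, n = 8). The log2 fold change, 0.69 with an SE of 0.179, passed the test (adjusted p = 0.0178). This was the lowest of the 5 in abundance, at 39 to 193 counts per library, and 5.84% of its 50-base stretches also occur in another transcript. Its call held in all 16 refits that omitted a library.

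Cxcl1 (ENSMUSG00000029380.11, chr5:90891241-90893115, plus strand), which lies 10.8 kb from Cxcl2, ranged from 19.3 to 49.3 CPM with *APOE3* (median 27.8) and from 33.8 to 66.9 CPM with *APOE4* (median 41.2). The same libraries stood at the ends as for Cxcl2, replicates 35 and 41 at the top of *APOE4* and replicate 33 at the bottom of *APOE3*, and *APOE3* replicates 27, 31 and 32 reached into the *APOE4* range. The mean went from 30.4 ± 9.97 to 47.6 ± 13.1 CPM, and the log2 fold change was 0.65 with an SE of 0.178 (adjusted p = 0.0232). The call was lost without *APOE3* replicate 30 (0.59, adjusted p = 0.0532) and without *APOE4* replicate 41 (0.56, adjusted p = 0.0588).

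For Ccl2 (ENSMUSG00000035385.5, chr11:82035571-82037453, plus strand), the ligand that draws monocytes, the *APOE3* libraries ranged from 103 to 218 CPM (median 144) and the *APOE4* libraries from 171 to 370.0 CPM (median 183). The genotypes overlapped, since *APOE3* replicates 27 and 31 lay at 191 and 218 CPM, and 2 *APOE4* libraries, replicates 35 (370.0) and 41 (279), exceeded every *APOE3* library. The mean went from 149 ± 39.5 to 219 ± 70.4 CPM, and the log2 fold change was 0.55 with an SE of 0.168 (adjusted p = 0.0359). This was the least stable of the 5 calls and survived 7 of the 16 omissions of a library. It was lost without *APOE3* replicate 25, 26, 28, 30, 32 or 33 and without *APOE4* replicate 35, 40 or 41, with adjusted p up to 0.0819, and the log2 fold change was 0.41 without replicate 35. A predicted gene, Gm17268, overlaps Ccl2 on the opposite strand and had 0 counts.

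Cxcl16 (ENSMUSG00000018920.11, chr11:70453983-70459984, minus strand), the ligand of Cxcr6, ranged from 29.3 to 47.8 CPM with *APOE3* (median 37.5) and from 38.5 to 66.0 CPM with *APOE4* (median 49.1). 5 of 8 *APOE4* libraries were above every *APOE3* library and replicate 43 was the lowest of *APOE4*, inside the *APOE3* range. The mean went from 37.8 ± 6.23 to 51.4 ± 9.07 CPM. The log2 fold change was 0.44 with an SE of 0.105 (adjusted p = 0.0123). The call held in 16 of 16 fits with 1 library left out. Zmynd15 (257 to 502 counts) overlaps it on the other strand, 16.9% of its 50-base stretches occur in another transcript, and no strand setting for the counting is given in the sources used here, so reads of these genes cannot be told apart where they overlap.

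Csf1 (ENSMUSG00000014599.10, chr3:107741048-107760469, minus strand) had the highest CPM of the genes that rose, though per length Ccl2 was above it in 11 of 16 libraries. It ranged from 533 to 833 CPM with *APOE3* (median 669) and from 678 to 1058 CPM with *APOE4* (median 814). Replicates 35, 40 and 41 were above every *APOE3* library, and the genotypes overlapped. The mean went from 665 ± 104 to 846 ± 122 CPM. The log2 fold change of 0.35, with an SE of 0.0926, was the smallest of the 5 (adjusted p = 0.0209), and the call held in 16 of 16 fits with 1 library left out.

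Cxcl12 and Cx3cl1, both abundant in these cultures, had lower means with *APOE4* but did not pass the test. Cxcl12 (ENSMUSG00000061353.11, chr6:117168535-117181367, plus strand) ranged from 1315 to 1848 CPM with *APOE3* (median 1655) and from 1197 to 1747 CPM with *APOE4* (median 1429). Replicate 38 (1747) was the single *APOE4* library above the *APOE3* median, and *APOE3* replicate 33 (1315) was low. Its log2 fold change of -0.21 had an SE of 0.0748 (adjusted p = 0.0693), and it passed without replicate 33 (-0.25, adjusted p = 0.0352), without replicate 38 (-0.26, adjusted p = 0.0226) and by DESeq2's Wald test (adjusted p = 0.0438).

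Cx3cl1 (ENSMUSG00000031778.13, chr8:94772009-94782427, plus strand), the ligand of the microglial receptor Cx3cr1, ranged from 444 to 592 CPM with *APOE3* (median 525) and from 421 to 531 CPM with *APOE4* (median 448). 4 of 8 *APOE4* libraries were below every *APOE3* library, and 1 was above the *APOE3* median. Its log2 fold change of -0.16 had an SE of 0.0627 (adjusted p = 0.0962), and it passed without *APOE3* replicate 31 (-0.19, adjusted p = 0.0364) or *APOE4* replicate 36 (-0.19, adjusted p = 0.0481).

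Ccl5 and Cxcl10, the T cell chemokines, were low and did not pass. Ccl5 (ENSMUSG00000035042.2, chr11:83525778-83530518, minus strand) had medians of 3.25 CPM with *APOE3* (2.65 to 4.36) and 3.22 with *APOE4* (2.56 to 5.26). Its log2 fold change was 0.06 with a 95% interval from -0.27 to 0.39 (adjusted p = 0.842), which leaves room for a change of the size seen in Csf1. Cxcl10 (ENSMUSG00000034855.13, chr5:92346638-92348889, minus strand) ranged from 0.855 to 5.49 CPM with *APOE3* (median 1.97) and from 1.14 to 3.24 with *APOE4* (median 1.98). *APOE3* replicates 25 (5.49) and 33 (4.22) were the high libraries, on 13 to 88 counts per library. The log2 fold change of -0.33 had a 95% interval from -1.07 to 0.41 (adjusted p = 0.581), so neither a rise nor a fall can be read from it.

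**Figure D3:**
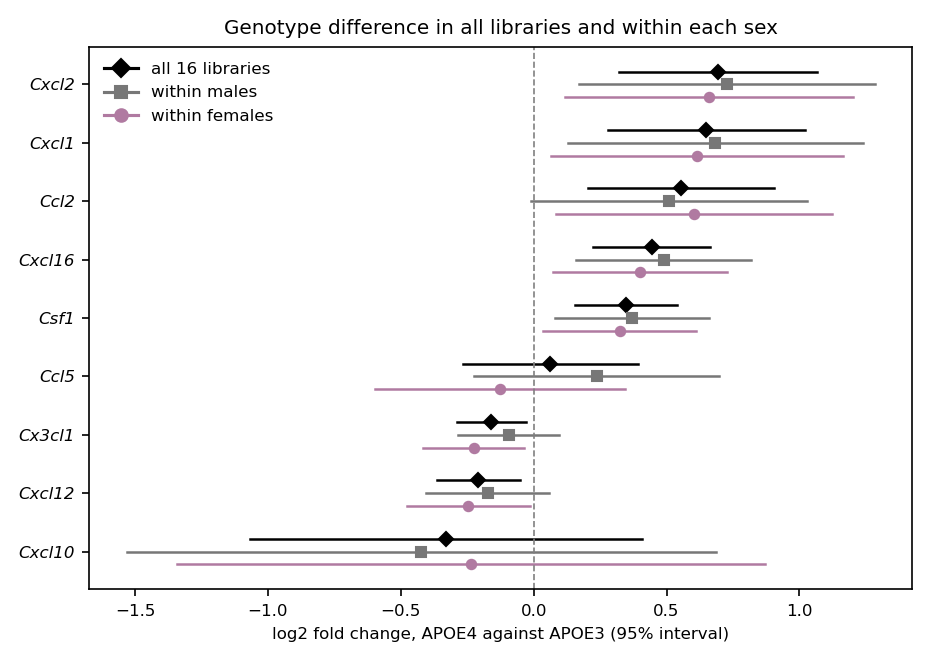
Log2 fold change of APOE4 against APOE3 for the 9 genes tested, with single-gene 95% intervals not adjusted for multiple testing, over all 16 libraries and within each sex. Cxcl2, Cxcl1, Ccl2, Cxcl16 and Csf1 lie above 0 in both sexes, from 0.32 to 0.73, and the interval of Cxcl10 is the widest.

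The 5 genes had higher means with *APOE4* in both sexes. Within males the log2 fold changes of Ccl2, Cxcl1, Cxcl2, Cxcl16 and Csf1 were 0.51, 0.68, 0.73, 0.49 and 0.37, and within females 0.60, 0.61, 0.66, 0.40 and 0.32. Cxcl2, for one, averaged 4.26 ± 0.686 and 7.13 ± 2.78 CPM in *APOE3* and *APOE4* males and 4.91 ± 1.66 and 7.73 ± 1.91 CPM in females (SD, n = 4). With 4 libraries per genotype and sex none passed (edgeR adjusted p from 0.170 to 0.364), where the background was 0% of all genes in either sex and either direction. At an unadjusted p under 0.05 there were 4 of the 9 members and 1775 genes in males and 7 members and 2428 genes in females, and DESeq2 called 34 genes in males and 418 in females, with 0 of the 9 members in each.

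In the females the call depended on 1 library: without *APOE3* replicate 31, the female culture with the highest Ccl2, Cxcl1 and Csf1 of its genotype, these 3 passed as higher and Cx3cl1 as lower (adjusted p from 0.0303 to 0.0494), in a fit that called 3.94% of all genes higher and 3.05% lower. No member's genotype effect differed between the sexes by the interaction term, which called 0% of all genes by either tool, with 345 genes at an unadjusted p under 0.05 by edgeR and 308 by DESeq2. The difference of the Cxcl1 effects, males minus females, was 0.07 with a 95% interval from -0.71 to 0.85, which leaves room for effects of unequal size. Sex itself changed none of the 9 (0.0721% of all genes were called), with log2 differences between -0.17 and 0.17.

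Ccl2, Cxcl1 and Cxcl2 also varied among cultures of one genotype more than most genes did. The coefficient of variation of Ccl2 was 26.5% with *APOE3* and 32.1% with *APOE4*, that of Cxcl1 32.8% and 27.6%, and that of Cxcl2 26.7% and 30.0%, against medians of 8.91% and 9.03% over all genes tested. Cxcl16 (16.5% and 17.6%) and Csf1 (15.6% and 14.5%) varied less, and Cxcl12 (10.9% and 12.7%) and Cx3cl1 (10.1% and 9.44%) lay close to those medians. Cxcl10 had the widest spread of the 9 genes tested, at 70.7% and 34.4%. The medians cover genes of every abundance, and counting error widens the spread of low-count genes such as Cxcl2 and Cxcl10. The dispersion that edgeR fitted for Ccl2 (biological coefficient of variation 0.233) was above the value of genes of its abundance (0.0762), and so was that of Cxcl1 (0.245 against 0.0819). The excess was smaller in proportion for Cxcl2 (0.230 against 0.143) and Cxcl10 (0.464 against 0.207).

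The 5 genes that rose moved together between cultures of the same genotype. After each genotype's mean was subtracted, log2 CPM correlated at r = 0.93 between Cxcl1 and Csf1, 0.89 between Ccl2 and Cxcl1, 0.88 between Cxcl1 and Cxcl16 and 0.81 between Cxcl1 and Cxcl2 (Pearson, 16 libraries, which share their library preparation and any deviation in depth). Cx3cl1 ran the other way, at r = -0.67 with Ccl2 and -0.70 with Csf1. Over both genotypes Ccl5 and Cxcl10 had values between -0.15 and 0.11 with these 5, and Cxcl12 between -0.37 and 0.09. For Ccl5 these pool opposite signs, since it ran at 0.25 to 0.60 with the 5 genes among the 8 *APOE3* libraries and at -0.47 to -0.39 among the 8 *APOE4* libraries. Cxcl12 with Cxcl2 likewise gave 0.53 with *APOE3* and -0.55 with *APOE4*, and Cxcl10 with Csf1 gave -0.31 and 0.21. The difference between genotypes in these correlations was not tested.

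**Figure D4:**
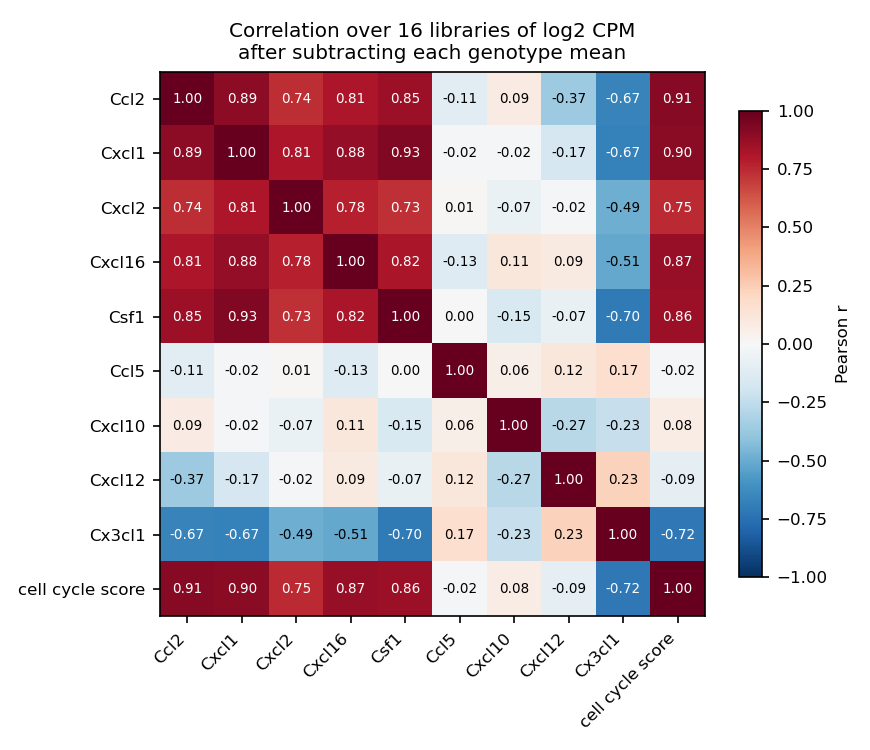
Pearson correlation between the 9 genes tested, and with the mean log2 CPM of 26 cell cycle genes, over 16 libraries after each genotype mean was subtracted. Ccl2, Cxcl1, Cxcl2, Cxcl16 and Csf1 form a block from 0.73 to 0.93, which the cell cycle score joins at 0.75 to 0.91, and Cx3cl1 is negative with all of them.

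The genes whose pattern was most like each member included no chemokine. Nearest to Ccl2 were Tubb4b (r = 0.96), Phf19 and Calm3 (both 0.95), nearest to Cxcl1 were Tacc3, Pimreg and Nuak2 (each 0.94), and nearest to Csf1 were Ddah1, H6pd and Cdc20 (each 0.94). Tacc3 and Cdc20 act in mitosis and Tubb4b is a tubulin. Cxcl16 was closest to Bex3 (0.97), Hmgn2 (0.95) and Thbs1 (0.95), and Cxcl2 to Slc35b4 (0.89), Glt8d2 (0.88) and Wdr62 (0.88).

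Different genes accompanied the members that did not rise. Cxcl12 was closest to Atoh8 (0.94), Plxna4 (0.94) and Id2 (0.92), of which Atoh8 and Id2 are helix-loop-helix regulators of transcription. Cx3cl1 was closest to Ltbp4 (0.91), Ankrd10 (0.91) and Fxyd5 (0.89). Cxcl10 was closest to Plod2 (0.84), Ifit3 (0.83), an interferon-stimulated gene, and Katnbl1 (0.82), and Ccl5 to Psmd12 (0.74), Xpc (0.72) and Gm13835 (0.72). These are descriptions over 16 libraries and the highest of 12481 values each.

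Cell cycle genes moved with the chemokines in both respects. Of 26 cell cycle genes 24 rose and 0 fell with *APOE4*, with a median log2 fold change of 0.65, the largest in Hmmr (0.86), Cenpe (0.82), Ccnb2 (0.82), Cenpf (0.79) and Plk1 (0.76). Mki67, the most abundant of them, went from 255 ± 69.6 to 410 ± 80.5 CPM. Their mean log2 CPM, taken as a cell cycle score, was 5.63 ± 0.351 with *APOE3* (5.14 to 6.18) and 6.23 ± 0.270 with *APOE4* (5.91 to 6.69), and the genotypes overlapped.

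Within genotypes the score correlated with Ccl2 at r = 0.91, Cxcl1 at 0.90, Cxcl16 at 0.87, Csf1 at 0.86, Cxcl2 at 0.75 and Cx3cl1 at -0.72. For Cxcl12 the value was -0.09 (0.08 with *APOE3* and -0.31 with *APOE4*), for Cxcl10 0.08 (0.11 and -0.02) and for Ccl5 -0.02, which pools 0.46 with *APOE3* and -0.50 with *APOE4*. When this score was added as a covariate, 0 of the 9 members and 0 of all 12481 genes were called. The log2 fold changes in that fit were -0.13 (SE 0.0986) for Ccl2, -0.06 (SE 0.110) for Cxcl1, 0.10 (SE 0.181) for Cxcl2, 0.03 (SE 0.0789) for Cxcl16 and -0.0051 (SE 0.0703) for Csf1. The score itself differs between the genotypes, so the genotype and the cell cycle state of the cultures cannot be told apart by this fit, and the part of the cell cycle in the chemokine difference was not tested otherwise.

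**Figure D5:**
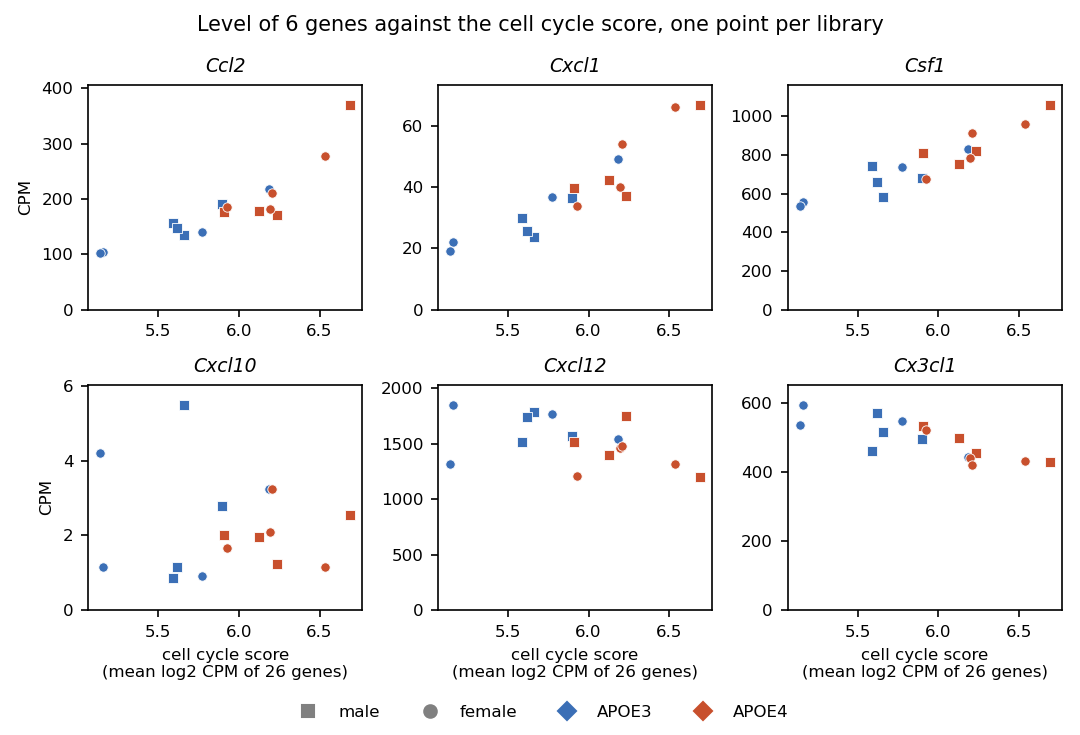
CPM of 6 genes (vertical axes from 0) against the cell cycle score, the mean log2 CPM of 26 cell cycle genes, with 1 point per library, coloured by genotype and shaped by sex. Ccl2, Cxcl1 and Csf1 climb with the score in both genotypes (r = 0.91, 0.90 and 0.86 within genotypes), Cx3cl1 declines (-0.72), and Cxcl10 (0.08) and Cxcl12 (-0.09) have values close to 0.

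Receptors that sense cytokines and microbial products, upstream of NF-kB, rose in part. Of 14 such genes 5 rose and 0 fell, namely Cd14 (log2 fold change 0.46, adjusted p = 0.0100), Tlr2 (0.39, adjusted p = 0.0277), Irak3 (0.37, adjusted p = 0.00317), Il1r1 (0.33, adjusted p = 0.00603) and Ticam1 (0.20, adjusted p = 0.0281). Cd14 and Tlr2 bind bacterial products, Il1r1 is the receptor of interleukin-1, Ticam1 is an adaptor of Toll-like receptors, and Irak3 is an inhibitor of the same pathway. The calls of Cd14, Irak3 and Il1r1 held in 16 of 16 fits with 1 library left out and those of Tlr2 and Ticam1 in 11. Tnfrsf1a, the most abundant, had 250 ± 8.35 and 239 ± 13.5 CPM (adjusted p = 0.273). The mean log2 CPM of the 14 genes correlated with Cxcl1 at r = 0.50 within genotypes (0.71 with *APOE3* and 0.30 with *APOE4*). With Ccl2 the value was 0.41 (0.70 and 0.17).

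Of 15 transcripts of NF-kB subunits, inhibitors and kinases 0 rose and Nfkb1 fell, from 291 ± 13.8 to 268 ± 8.23 CPM (log2 fold change -0.12, adjusted p = 0.0251, held in 12 of 16 fits with 1 library left out). Nfkbia, which encodes an inhibitor of NF-kB, was the most abundant at 329 ± 10.9 and 317 ± 12.3 CPM and did not pass (log2 fold change -0.05, adjusted p = 0.298). Of the 15 genes 7 had log2 fold changes above 0. The mean log2 CPM of the 15 genes correlated with Cxcl1 at r = -0.01 and with Ccl2 at -0.24 within genotypes.

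Of 7 factors that control the decay of chemokine mRNA, Zfp36 fell and none rose. Zfp36, or tristetraprolin, binds AU-rich elements and destabilises cytokine and chemokine mRNAs, and went from 80.1 ± 7.28 to 65.9 ± 4.42 CPM, and 0 of 8 *APOE4* libraries exceeded the *APOE3* median (log2 fold change -0.28, adjusted p = 0.00609). The call held in 16 of 16 fits with 1 library left out. Its relative Zfp36l1, the most abundant of the list, had a log2 fold change of -0.15 (adjusted p = 0.0681). The mean log2 CPM of the 7 factors correlated with Cxcl1 at r = 0.0030 within genotypes, which pools -0.20 with *APOE3* and 0.46 with *APOE4*. With Ccl2 the value was -0.07, which pools -0.39 and 0.48.

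In the interferon pathway upstream of Cxcl10, a list of 13 genes, Irf3 fell by a small amount, with a log2 fold change of -0.12 (adjusted p = 0.0460, held in 4 of 16 fits with 1 library left out). Ifnar1 was the most abundant, at 327 ± 25.3 and 324 ± 27.8 CPM (adjusted p = 0.882). The mean log2 CPM of the 13 genes correlated with Cxcl10 at r = 0.54 within genotypes, the highest value of the 9 members.

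The machinery that releases and holds chemokines changed by small amounts. Of 7 tested proteases and their partners, Adam17, which sheds Cx3cl1, rose by a log2 fold change of 0.16 (adjusted p = 0.0143, held in 16 of 16 fits with 1 library left out) and Rhbdf1, a rhomboid-like partner of Adam17, had -0.10 (adjusted p = 0.0296, held in 10 of 16). Adam10, the most abundant, had 232 ± 11.7 and 244 ± 8.69 CPM (adjusted p = 0.178). Of 15 heparan sulfate carriers and enzymes 3 rose and 0 fell. These were Hspg2, or perlecan, at 5042 ± 345 and 5574 ± 316 CPM (log2 fold change 0.15, adjusted p = 0.0301, held in 10 of 16), Ext1, which builds the chain (0.18, adjusted p = 0.00824), and Glce, which modifies it (0.23, adjusted p = 0.0188).

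Most signaling receptors of the members were not detected or barely detected in these cells. Ccr1, Ccr2, Ccr3, Cxcr2 and Cxcr6, signaling receptors of Ccl2, Ccl5, Ccl7, Cxcl1, Cxcl2 and Cxcl16, had 0 counts in all 16 libraries, and Cx3cr1 and Csf1r, the receptors of Cx3cl1 and Csf1, had at most 3 and 5 counts. These receptors were singled out after their values were seen. Of 23 chemokine receptors and scavengers 5 were tested and 0 passed. The most abundant was Ackr3, which scavenges Cxcl12, at 185 ± 35.6 and 161 ± 40.3 CPM (log2 fold change -0.20, adjusted p = 0.313), and Cxcr4, the signaling receptor of Cxcl12, had 56.0 ± 17.0 and 44.1 ± 11.5 CPM (-0.34, adjusted p = 0.156). Cxcr4, Ackr3 and the endothelial scavenger Ackr1 (-0.30, adjusted p = 0.137) had lower means with *APOE4*, while Ccrl2 (0.04, adjusted p = 0.772) and Cxcr3, the receptor of Cxcl10 (0.14, adjusted p = 0.746), had higher ones.

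Few other chemokines were detected. Of 27 further ligands Ccl25 alone was tested (6.23 ± 0.681 and 5.71 ± 0.791 CPM, log2 fold change -0.13, adjusted p = 0.415), 11 had 0 counts in all 16 libraries and 16 had at most 3. Cxcl3 and Cxcl5, relatives of Cxcl1 and Cxcl2, reached at most 9 and 23 counts. Among 10 colony-stimulating factors, related ligands and receptors 7 were tested and none passed. Csf3, which drives neutrophil production, was low and had 1.12 ± 0.457 and 1.69 ± 0.797 CPM (log2 fold change 0.59, adjusted p = 0.188), Il34, the other ligand of Csf1r, had a log2 fold change of 0.18 (adjusted p = 0.642), and Csf2rb2 had -0.44 (adjusted p = 0.0739). Kit was the most abundant at 605 ± 108 and 554 ± 119 CPM (adjusted p = 0.505).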

How the data were processed

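The authors deposited whole-number read counts per gene for 16 libraries, without normalization, made from poly-A RNA (100 ng) with 17 PCR cycles and 2 × 50-base reads. Per the submitters' processing notes STAR, featureCounts, mm10 and hg38 were used, and their versions and the strand setting are not given in the sources used here. Reads carry no molecular identifiers, so the depth covers counting error only, and a count of 3 was taken as the floor.

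Symbols and positions came from GENCODE vM21 (GRCm38), which held 38872 of 39056 mouse identifiers. Counts were fitted in R 4.3.3 with edgeR 4.0.16 (filterByExpr, TMM, genotype, quasi-likelihood F test, Benjamini-Hochberg over 12481 genes, threshold 0.05). The SE is the size of the log2 fold change divided by the square root of F, and 95% intervals use the t distribution of the fit. Sexes were compared in a fit of 4 groups. CPM used TMM-scaled libraries, and log2 CPM a prior count of 2. Alternatives used DESeq2 1.42.0 and limma 3.58.1, and the fits were tested on simulated data.

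The members and the 17 other lists were chosen with earlier results of these data known. All members are named, and of each other list the genes past the threshold (the 5 largest where more passed), its most abundant gene, and for each member the 3 genes of highest correlation. A few genes, among them receptors and markers, were named after their values were seen. Some genes of the lists are not reported here.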

Additional observations from a re-analysis of the deposited data

How the results depend on the processing

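Of the alternatives tried (the size factors of DESeq2, its Wald test, a fit of unfiltered genes, a minimum of 10 counts in each library, limma voom with sample quality weights, sex as a covariate, the cell cycle score as a covariate), all but the last called the 5 members that rose. With that score 0 members were higher. The sign of the log2 fold change switched for Ccl2 (-0.13, SE 0.0986), Cxcl1 (-0.061, SE 0.110), Csf1 (-0.0051, SE 0.0703) and Cx3cl1 (0.034, SE 0.0639). None of these passed, and those of Cxcl1, Csf1 and Cx3cl1 were smaller than their SE. DESeq2's Wald test called 1 member lower, Cxcl12. Limma voom turned the log2 fold change of Cxcl10 to 0.035. With 1 library left out, members called higher numbered 3 to 5 (3 without *APOE3* replicate 30 or *APOE4* replicate 41), members called lower 0 to 1, and members called higher within females 0 to 3. In the same fits the log2 fold change of Ccl5 ran from -0.040 to 0.12 (below 0 without *APOE4* replicate 36) and within females from -0.27 to 0.022, that of Cxcl10 within males from -0.71 to 0.26 (above 0 without *APOE3* replicate 25) and within females from -0.54 to 0.20 (above 0 without *APOE3* replicate 33). Over all genes 1597 were called, against 0 with the cell cycle score, 853 and 952 without *APOE3* replicate 30 or 33, and 846 without *APOE4* replicate 41. Ccl7 gave no value in the fits. No paired analysis was possible because the genotypes share no replicate numbers. Depth leaves Ccl7 without a test, and Ccl5, Cxcl2 and Cxcl10 had under 200 counts per library.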
